A study of Mus musculus with 7 samples.

Results

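The genes described here are those of de novo lipogenesis, the making of fatty acids from acetyl-CoA, and their main regulators, as measured after a 24 h fast in the liver of WT and SHIVA mice. The members are 10 genes, taken as every non-control probe whose gene name on the arrays was Srebf1, Mlxipl, Acly, Acss2, Acaca, Acacb, Fasn, Me1, Scd1 or Pnpla3. They were read by 18 of the 55681 probes and make up 10 of the 36492 gene names. Of them, 4 genes had 1 probe (Srebf1, Mlxipl, Fasn and Scd1) and 6 had several. All 10 genes, and 17 of the 18 probes, passed the filter on dim signals and were tested.

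The WT group held 3 wildtype C57BL/6 mice. The SHIVA group held 4 mice of the same background that carried a mutation of Sox17, a transcription factor of the SRY-related HMG box family. The mutation came from chemical (ENU) mutagenesis and replaces a single amino acid in the DNA-binding domain. Viable carriers are heterozygous according to the study's methods. It is present in every cell of the animal, so that no change can be assigned to hepatocytes by the design. All mice of both groups were females of 8 to 12 weeks, and all were fasted. Fed livers were not analysed here, so no response to fasting itself can be read from these values. Whole liver RNA was measured, in which fewer cells of a type and less RNA per cell cannot be told apart.

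Lipogenesis turns surplus carbohydrate into fat. Citrate leaves the mitochondria and is split to acetyl-CoA by ATP citrate lyase, acetyl-CoA carboxylase makes malonyl-CoA from it, and fatty acid synthase joins the units to palmitate with NADPH as the reductant. Insulin drives the pathway in liver through SREBP-1c, the product of Srebf1, and glucose through ChREBP, the product of Mlxipl. In the fasted liver the pathway is turned down and stored fat is burned in its place.

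Of the 13 member promoters searched, only those of Mlxipl held a match to the sterol regulatory element or the E-box given below. Promoter sequences are shown for Mlxipl and for the members with the largest differences between the genotypes in either direction, Me1, Acly and Fasn. Each is the 250 bases before an annotated transcription start, from RefSeq on GRCm38.p6, written 5′ to 3′ on the strand of the gene. Capitals mark matches, on either strand, to a sterol regulatory element (TCACNCCAC), an E-box (CACGTG), an NF-Y box (CCAAT) or a GC box (GGGCGG). NF-Y and Sp1, which bind the latter boxes, are known partners of SREBP.
Me1, chr9:86695915-86696164, minus strand: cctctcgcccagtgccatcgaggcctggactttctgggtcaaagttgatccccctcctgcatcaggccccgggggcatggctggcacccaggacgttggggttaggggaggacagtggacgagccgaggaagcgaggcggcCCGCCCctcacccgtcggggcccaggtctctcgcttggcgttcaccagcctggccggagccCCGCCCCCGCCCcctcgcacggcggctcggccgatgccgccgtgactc
Acly, chr11:100528001-100528250, minus strand: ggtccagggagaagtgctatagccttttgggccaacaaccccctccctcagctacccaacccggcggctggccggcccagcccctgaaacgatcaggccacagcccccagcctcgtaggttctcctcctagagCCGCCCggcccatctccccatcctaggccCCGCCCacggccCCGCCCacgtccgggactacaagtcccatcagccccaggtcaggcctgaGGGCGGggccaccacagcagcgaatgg
Fasn, chr11:120824548-120824797, minus strand: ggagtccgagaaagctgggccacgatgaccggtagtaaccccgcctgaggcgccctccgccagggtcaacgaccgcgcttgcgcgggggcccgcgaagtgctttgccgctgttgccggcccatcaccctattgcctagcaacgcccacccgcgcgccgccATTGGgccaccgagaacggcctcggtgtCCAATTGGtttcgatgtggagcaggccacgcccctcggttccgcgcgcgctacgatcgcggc
Mlxipl, first start, chr5:135089640-135089889, plus strand: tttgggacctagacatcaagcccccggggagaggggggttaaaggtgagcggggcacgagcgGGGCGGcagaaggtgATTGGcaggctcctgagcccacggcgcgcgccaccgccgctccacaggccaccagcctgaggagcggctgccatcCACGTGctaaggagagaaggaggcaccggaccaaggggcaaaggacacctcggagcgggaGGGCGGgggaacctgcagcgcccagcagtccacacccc
Mlxipl, second start, chr5:135106641-135106890, plus strand: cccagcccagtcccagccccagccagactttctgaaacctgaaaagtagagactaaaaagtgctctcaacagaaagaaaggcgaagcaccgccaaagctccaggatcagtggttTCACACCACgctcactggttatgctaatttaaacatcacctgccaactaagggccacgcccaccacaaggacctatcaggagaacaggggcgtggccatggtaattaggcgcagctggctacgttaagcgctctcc

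The Me1 promoter shown held 3 GC boxes, of which 2 lay end to end from 48 to 37 bases before the start. A second annotated Me1 start (chr9:86687278-86687527, minus strand, not shown) had 1 NF-Y box and no GC box in its window. The Acly promoter held 4 GC boxes, and the Fasn promoter 3 NF-Y boxes, of which 2 overlapped in the run CCAATTGG between 62 and 55 bases before the start. The first Mlxipl promoter held the E-box, 98 to 93 bases before the start, and the second held the sterol regulatory element, 136 to 128 bases before it. RefSeq's table had 13 promoters for 9 of the 10 members and none for Scd1. A sterol regulatory element was found in 1 of the 13 and in 1.05% of all 32851 promoters, and an E-box in 1 of the 13 and in 6.02% of all. An NF-Y box was found in 8 of the 13 against 33.8% of all, and a GC box in 7 of the 13 against 32.7% of all. The starts listed for Acaca and Acacb may not be the main ones in liver, and Acacb is 1 of the 8 with an NF-Y box. These are matches of letters in a short window, and the absence of one says only that the letters are not in that window.

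Each liver was hybridized to its own array, and between 44.5% and 48.7% of probes per array were well above background. All arrays lay on 1 slide, the WT arrays in its first row and the SHIVA arrays in the second, so that place on the slide and genotype cannot be told apart. With 7 arrays in all, precision is set by their number. Signals are given as log2 of the processed intensity after quantile normalization, and log2 fold changes are SHIVA minus WT. They were tested with limma, with p-values adjusted by the Benjamini-Hochberg method over all 20002 genes tested and a threshold of 0.05. For Sox17, the mutated gene, the fitted change was 0.69 (adjusted p = 0.279, limma), and since a base change leaves the transcript in place this level does not check the labels. Sox17 was dim, with means of 3.95 in WT and 4.64 in SHIVA livers, and was well above background on 2 WT and 4 SHIVA arrays.

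Among the 10 lipogenic genes, 1 passed the threshold. This was Me1, which was lower in SHIVA livers, while 0.375% of all genes tested passed in either direction and 0.19% passed as lower. Another gene, Acly, had values that did not overlap between the genotypes and lay higher in SHIVA livers, but did not pass after adjustment. WT and SHIVA values did not overlap in 2 of the 10 genes (Me1 and Acly) and in 12.2% of all genes tested, of which 6.02% were lower and 6.14% higher in SHIVA livers. The unadjusted p was under 0.05 for 3 of the 10 (Me1, Acly and Fasn) and for 13.3% of all genes. The fitted change was below 0 in 4 members and above 0 in 6, with a median of 0.07 on the log2 scale, beside -0.01 for all genes tested and 51.2% of all genes below 0. The median turned below 0 without WT replicate 1 (-0.08), WT replicate 2 (-0.01) or SHIVA replicate 3 (-0.02), and the members had no common direction.

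**Figure D1:**
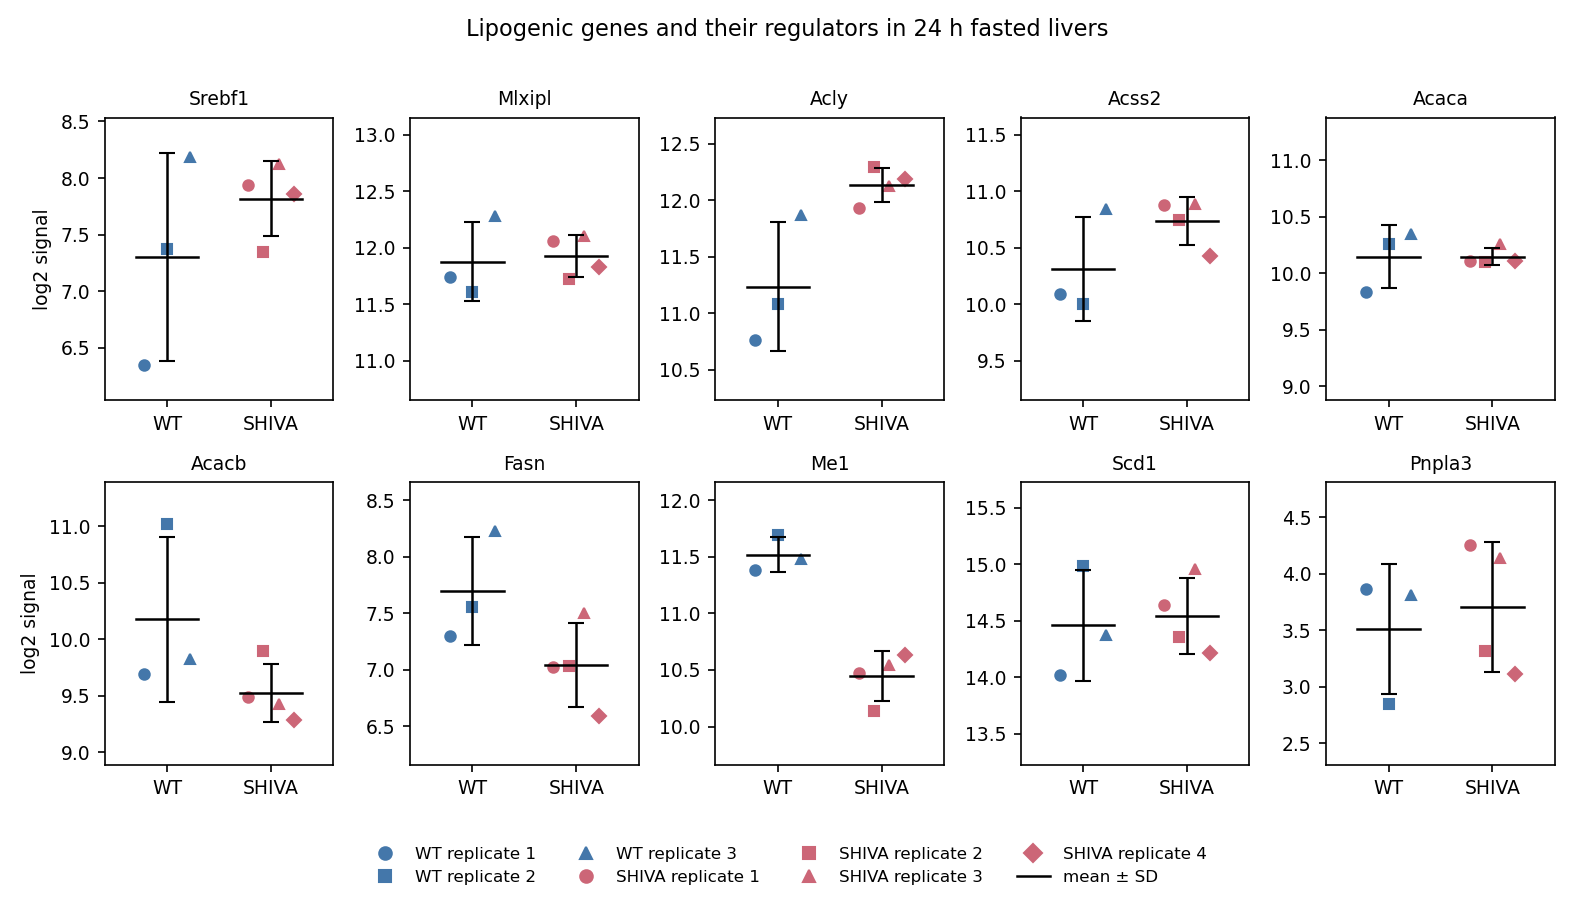
Log2 signal of each of the 10 genes in each liver, with WT livers in blue and SHIVA livers in red, 1 marker shape per replicate number, and the group mean ± SD in black (n = 3 WT and n = 4 SHIVA livers). Panels have their own range on the y axis, and levels are not comparable between genes. In Me1 all 4 SHIVA livers lie below all WT livers, in Acly all 4 lie above, and in the other genes the groups overlap.

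The transcription factors of the pathway did not differ beyond the spread between livers. Srebf1 encodes SREBP-1, which is held in the endoplasmic reticulum until it is cut and enters the nucleus. Its log2 signals were 6.35, 7.37 and 8.19 in WT replicates 1 to 3 and 7.94, 7.35, 8.13 and 7.86 in SHIVA replicates 1 to 4. The WT livers spanned 1.84 log2 units, more than the SHIVA livers (0.78), and enclosed all SHIVA values. The fitted change was 0.52 (standard error 0.39, 95% interval -0.38 to 1.41, adjusted p = 0.623, limma), and it was 0.04 without WT replicate 1 and 0.96 without WT replicate 3. Its probe begins at base 4166 of the transcript, far from the first exons that set SREBP-1a and SREBP-1c apart, and reads both.

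Mlxipl encodes ChREBP, which carries the glucose signal to glycolytic and lipogenic genes. Its log2 signals were 11.74, 11.61 and 12.28 in WT livers and 12.06, 11.72, 12.11 and 11.83 in SHIVA livers. All SHIVA values lay within the WT range. SHIVA differed from WT by 0.05 (standard error 0.20, 95% interval -0.40 to 0.50, adjusted p = 0.942, limma).

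The enzymes that supply cytosolic acetyl-CoA had higher mean signals in SHIVA livers, without passing the threshold. Acly encodes ATP citrate lyase, which splits exported citrate. Its log2 signals were 10.76, 11.08 and 11.87 in WT livers and 11.93, 12.30, 12.12 and 12.19 in SHIVA livers. Every SHIVA liver was above every WT liver, but the gap between the lowest SHIVA liver and WT replicate 3 was 0.06 log2 units, against a range of 1.11 within WT. The fitted change was 0.90 (standard error 0.25, 95% interval 0.32 to 1.48), a 1.86-fold higher level, with an unadjusted p of 0.00684 and an adjusted p of 0.206 (limma). Without WT replicate 3 it was 1.22 and passed (adjusted p = 0.0247, limma). A second Acly probe, which begins at base 1498 of the transcript, read 4.95, 5.28 and 6.73 in WT livers and 6.19, 5.97, 6.59 and 6.25 in SHIVA livers. There the groups overlapped, since WT replicate 3 was the highest of all livers (log2 fold change 0.60, adjusted p = 0.567 over all probes, limma).

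Acss2 encodes the cytosolic acetyl-CoA synthetase, which makes acetyl-CoA from acetate. Signals were 10.09, 10.003 and 10.84 on the log2 scale in WT livers and 10.88, 10.75, 10.89 and 10.43 in SHIVA livers. Here too WT replicates 1 and 2 were the lowest livers and WT replicate 3 lay among the SHIVA livers. SHIVA differed from WT by 0.43 (standard error 0.23, 95% interval -0.10 to 0.95, adjusted p = 0.480, limma), and it was 0.27 to 0.69 with single mice left out. The second probe gave 0.21 (adjusted p = 0.83 over all probes, limma).

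Of the acetyl-CoA carboxylases, Acaca was level between the genotypes and Acacb had a lower mean in SHIVA livers that did not pass. Acaca encodes the cytosolic ACC1, whose malonyl-CoA feeds fatty acid synthesis. WT livers read 9.83, 10.26 and 10.35 on the log2 scale and SHIVA livers 10.11, 10.10, 10.26 and 10.11. SHIVA differed from WT by -0.0028 (standard error 0.16, 95% interval -0.38 to 0.37, adjusted p = 0.996, limma), and its sign was the opposite in 9 of 18 alternative analyses, none of which passed. The other 2 Acaca probes, which begin at bases 81 and 6880, gave -0.11 and -0.36 (adjusted p = 0.806 and 0.820 over all probes, limma). Both were dim, with WT means of 4.67 and 4.31 beside 10.15 for the first probe. That from base 6880 was well above background on 2 WT and 3 SHIVA arrays.

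Acacb encodes ACC2 at the outer mitochondrial membrane, whose malonyl-CoA inhibits the entry of fatty acids for oxidation. WT livers read 9.69, 11.02 and 9.83 on the log2 scale and SHIVA livers 9.49, 9.90, 9.43 and 9.29. WT replicate 2 stood far above the other WT livers, and SHIVA replicate 2 lay above WT replicates 1 and 3. The log2 fold change was -0.65 (standard error 0.32, 95% interval -1.38 to 0.07, adjusted p = 0.429, limma), and without WT replicate 2 it was -0.23. The second probe, from base 7401, gave -0.71 (adjusted p = 0.318 over all probes, limma), with SHIVA replicate 3 above WT replicate 1.

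Fasn encodes fatty acid synthase, the enzyme that builds palmitate. Its log2 signals were 7.30, 7.56 and 8.23 in WT livers and 7.02, 7.04, 7.51 and 6.60 in SHIVA livers. The lowest 3 livers were SHIVA and the highest 2 were WT, while SHIVA replicate 3 lay above WT replicate 1. The log2 fold change was -0.66 (standard error 0.27, 95% interval -1.28 to -0.03, unadjusted p = 0.0412, adjusted p = 0.352, limma), and it was -0.39 without WT replicate 3. Fasn had 1 probe, so no second reading was at hand.

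The only member that changed past the threshold was Me1, the cytosolic malic enzyme, which makes NADPH for fatty acid synthesis from malate. Its log2 signals were 11.39, 11.69 and 11.48 in WT livers and 10.47, 10.14, 10.55 and 10.64 in SHIVA livers. The highest SHIVA liver was 0.75 log2 units below the lowest WT liver, which is more than the range within WT (0.30) or within SHIVA (0.50). The fitted change was -1.07 (standard error 0.17, 95% interval -1.45 to -0.69, adjusted p = 0.0455, limma), a 2.10-fold lower level in SHIVA livers. The call was a narrow one. With single mice left out the change lay between -1.14 and -0.97, but it passed in 1 of the 7 such fits, the one without WT replicate 3 (adjusted p = 0.0399, limma). Those without WT replicate 1, WT replicate 2 or any 1 of the 4 SHIVA livers left adjusted p-values from 0.0630 to 0.198 (limma).

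Me1 was read by 3 probes, and none of them overlapped between the genotypes. The probe that stood for the gene lies on chromosome 9 of mm9 from 86480571 to 86480630 and begins at base 1651 of the transcript. The probe from base 2952 (chromosome 9, 86475215 to 86475274) read 10.69, 10.76 and 10.34 in WT livers and 9.59, 9.64, 9.36 and 9.53 in SHIVA livers. That from base 3090 (chromosome 9, 86475077 to 86475136) read 10.40, 10.52 and 9.85 in WT livers and 9.27, 9.62, 8.92 and 9.18 in SHIVA livers. Their log2 fold changes were -1.07 and -1.01, beside -1.07 for the first. With p-values adjusted over all 26258 probes tested, of which 0.232% passed, the adjusted p-values of the 3 probes were 0.0542, 0.0505 and 0.139 (limma), so that none passed at the level of single probes. The 3 probes share their livers and the last 2 lie next to each other, and they are no separate replicates.

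**Figure D2:**
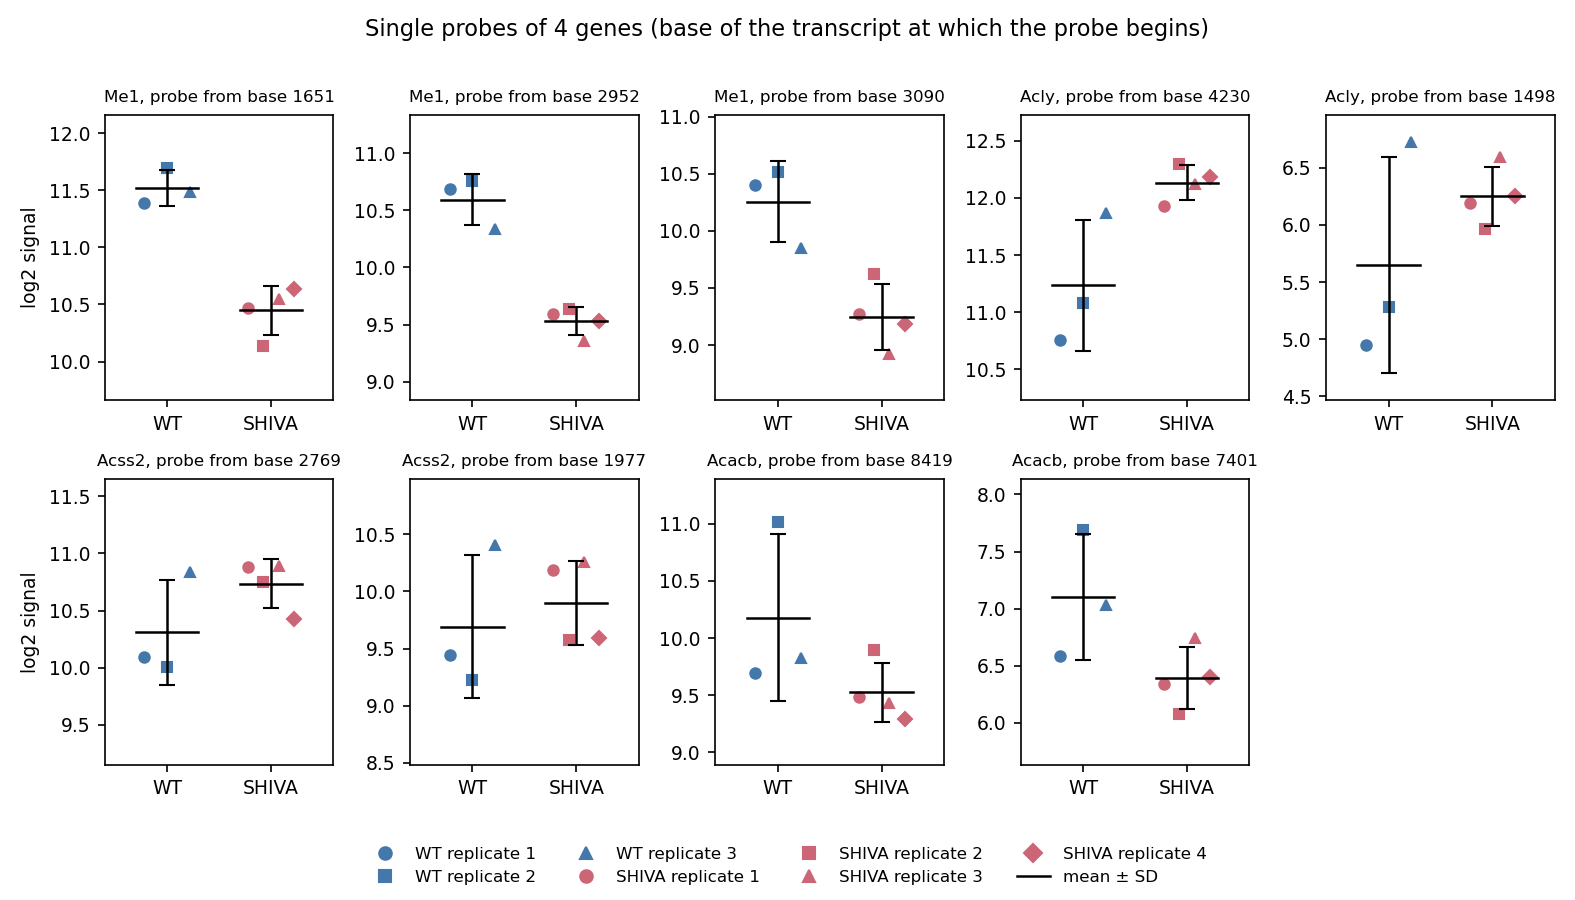
Log2 signal in each liver of every tested probe of Me1, Acly, Acss2 and Acacb, named by the base of the transcript at which the probe begins, with the group mean ± SD in black (n = 3 WT in blue, n = 4 SHIVA in red). The 3 Me1 probes separate the genotypes, 1 of the 2 Acly probes does, and those of Acss2 and Acacb do not.

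Scd1 encodes stearoyl-CoA desaturase, which turns saturated into monounsaturated fatty acids. WT livers read 14.02, 14.98 and 14.37 on the log2 scale and SHIVA livers 14.64, 14.35, 14.96 and 14.21. All SHIVA values lay within the WT range, and the fitted change was 0.08 (standard error 0.26, 95% interval -0.52 to 0.69, adjusted p = 0.927, limma). Pnpla3 encodes a lipid droplet protein of hepatocytes under the control of SREBP-1c. It was dim, at 3.87, 2.85 and 3.81 in WT livers and 4.25, 3.32, 4.14 and 3.11 in SHIVA livers, and was well above background on 2 WT and 2 SHIVA arrays. Its fitted change was 0.20 (standard error 0.36, 95% interval -0.62 to 1.01, adjusted p = 0.859, limma). The other Pnpla3 probe was not well above background on any array and was not tested.

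**Figure D3:**
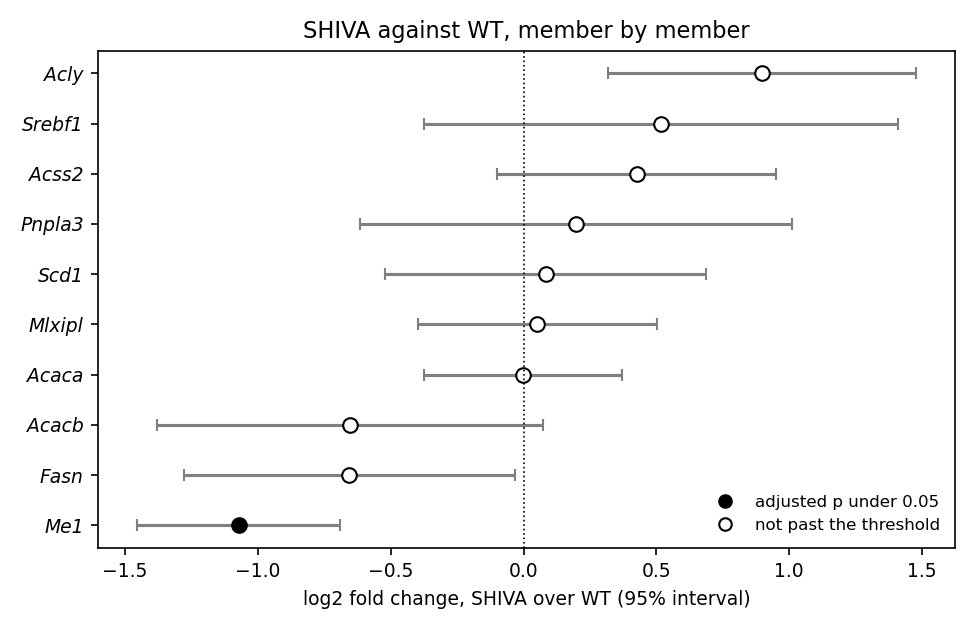
Fitted log2 fold change of SHIVA over WT livers for each of the 10 genes with its 95% interval from limma (n = 3 WT and n = 4 SHIVA livers), ordered by size. The filled point, Me1 at -1.07, passed an adjusted p of 0.05. The intervals of Acly and Fasn leave out 0 as well, but neither gene passed after adjustment over all genes.

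The spread between livers was itself uneven. The SD was larger in WT than in SHIVA livers for 9 of the 10 members, all but Me1, whereas this held for 55.3% of the 19961 genes with a value on every array. WT replicate 1 had the lowest WT value in 7 of the 10 members, beside 34.9% of all genes, and WT replicate 3 the highest in 6, beside 34.8% of all genes. Among SHIVA livers, replicate 3 was the highest in 6 of the 10, beside 22.7% of all genes. The median deviation of the members from the WT mean was -0.36, -0.03 and 0.35 in WT replicates 1 to 3 and 0.18, -0.13, 0.37 and -0.15 in SHIVA replicates 1 to 4. On this measure too the WT livers spanned more than the SHIVA livers.

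The cholesterol synthesis genes, which answer to SREBP-2, were uneven in the same livers. Of the 15 such genes with a value on every array, 13 were highest in WT replicate 3 among WT livers and 15 were highest in SHIVA replicate 3 among SHIVA livers. Of the lipogenic members, 5 of 10 had their highest value of each group in these same livers, beside 10.8% of all genes. Both livers are labelled replicate 3 and their arrays lay in the same column of the slide, and whether either bears on these values was not tested.

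The lists of genes around the members held no gene that passed the threshold. Of 81 tested genes in 8 lists, 0 passed under limma, 7 had an unadjusted p under 0.05 and 7 did not overlap between the genotypes (8.64%, beside 12.2% of all genes tested). The methods' t-test gave 0 calls over all genes after adjustment. Without WT replicate 3, 1 gene of the other lipogenic targets of SREBP-1c passed under limma, higher in SHIVA livers. With all livers, the count of 0 holds for the control of SREBP-1c by its escort, its proteases and LXR, for ChREBP's partner and targets, for the other lipogenic targets of SREBP-1c, for NADPH supply, for the control of acetyl-CoA carboxylase and the use of malonyl-CoA, for mitochondrial fatty acid synthesis, for cholesterol synthesis and for triglyceride assembly.

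Among genes that control SREBP-1c, the 11 tested had a median log2 fold change of -0.04. The lowest was Insig2, which holds SREBP in the endoplasmic reticulum, with 13.54, 13.44 and 11.96 in WT livers and 11.79, 13.09, 11.67 and 12.44 in SHIVA livers (-0.73, adjusted p = 0.546, limma). WT replicate 3 lay among the SHIVA livers here too. The highest was Scap, the escort of SREBP to the Golgi (0.29, adjusted p = 0.649, limma).

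The list for ChREBP's partner and targets had 10 tested genes, among them Mlxip, a relative of ChREBP that is neither (-0.25). Of the 10, 9 lay below 0, Mlxip included, and 3 did not overlap, all 3 lower in SHIVA livers. The median log2 fold change was -0.31 and stayed below 0 in all 18 alternative analyses (-0.41 to -0.23), which are not all separate checks. For comparison, 6.02% of all genes tested did not overlap and were lower. The largest fall of the fitted value was that of Txnip, which curbs glucose uptake, with log2 signals of 11.70, 11.45 and 11.06 in WT livers and 10.13, 10.66, 9.82 and 10.68 in SHIVA livers (-1.08, adjusted p = 0.145, limma). The other 2 were Pklr, the liver pyruvate kinase (-0.80, adjusted p = 0.262, limma), and Khk, the fructokinase (-0.50, adjusted p = 0.217, limma), both named after their values were seen. The highest was Gckr, the regulator of glucokinase, at 0.07. The signal of Mlxipl itself was level, as given above. Lipogenic genes to which ChREBP also carries the glucose signal were counted among the members and are not in this list. Those went both ways, with Acly at 0.90, Scd1 at 0.08, Acaca at -0.0028, Fasn at -0.66 and Me1 at -1.07. The list thus does not stand for all targets of ChREBP.

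Of the 12 other lipogenic targets of SREBP-1c, 8 lay below 0, with a median of -0.16 that was 0.05 without WT replicate 3. They ran from Thrsp, known as Spot 14 (-0.89, adjusted p = 0.394, limma), to its relative Mid1ip1 (0.65, adjusted p = 0.579, limma), both of which bear on acetyl-CoA carboxylase and lipogenesis. Mid1ip1 had WT signals of 9.29, 8.81 and 10.95, so that WT replicate 3 was above all SHIVA livers (10.15 to 10.51) and the other WT livers below them.

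The NADPH supply beside Me1 was described by 6 tested genes with a median of -0.03. The lowest was the transketolase Tkt (-0.36, adjusted p = 0.616, limma) and the highest the mitochondrial malic enzyme Me2 (0.41, adjusted p = 0.366, limma). Me2 read 4.56, 4.36 and 4.89 in WT livers and 5.03, 5.22, 4.82 and 4.95 in SHIVA livers, with SHIVA replicate 3 below WT replicate 3. Me3, the other mitochondrial malic enzyme, was well above background on 1 WT and 1 SHIVA array and was not tested, and H6pdx was not found under that symbol.

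The genes that control acetyl-CoA carboxylase or use malonyl-CoA, 11 tested, had a median of -0.03. They ran from Mlycd, malonyl-CoA decarboxylase (-0.25, adjusted p = 0.621, limma), to Prkaa1, a catalytic subunit of the AMP-activated kinase that inactivates the carboxylases. Prkaa1 read 6.48, 6.67 and 6.67 in WT livers and 7.01, 7.26, 6.84 and 7.02 in SHIVA livers (0.43, adjusted p = 0.275, limma), and the groups did not overlap. Mitochondrial fatty acid synthesis, a separate pathway that serves lipoate, had 6 tested genes with a median of -0.02, from Oxsm (-0.27) to Cbr4 (0.08).

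Cholesterol synthesis genes, 16 tested, had a median of -0.20 (0.06 without WT replicate 3). The lowest was Mvd, the mevalonate decarboxylase (-0.57, adjusted p = 0.546, limma). Triglyceride assembly, which takes up the fatty acids made, had 9 tested genes with a median of -0.14 and ran from Lpin2, a phosphatidate phosphatase (-1.07, adjusted p = 0.415, limma), to Agpat1, an acyltransferase (0.18, adjusted p = 0.783, limma). For Lpin2 SHIVA replicate 2 stood apart at 8.34, while the other SHIVA livers read 10.39 to 10.67 and WT livers 10.93 to 11.12.

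**Figure D4:**
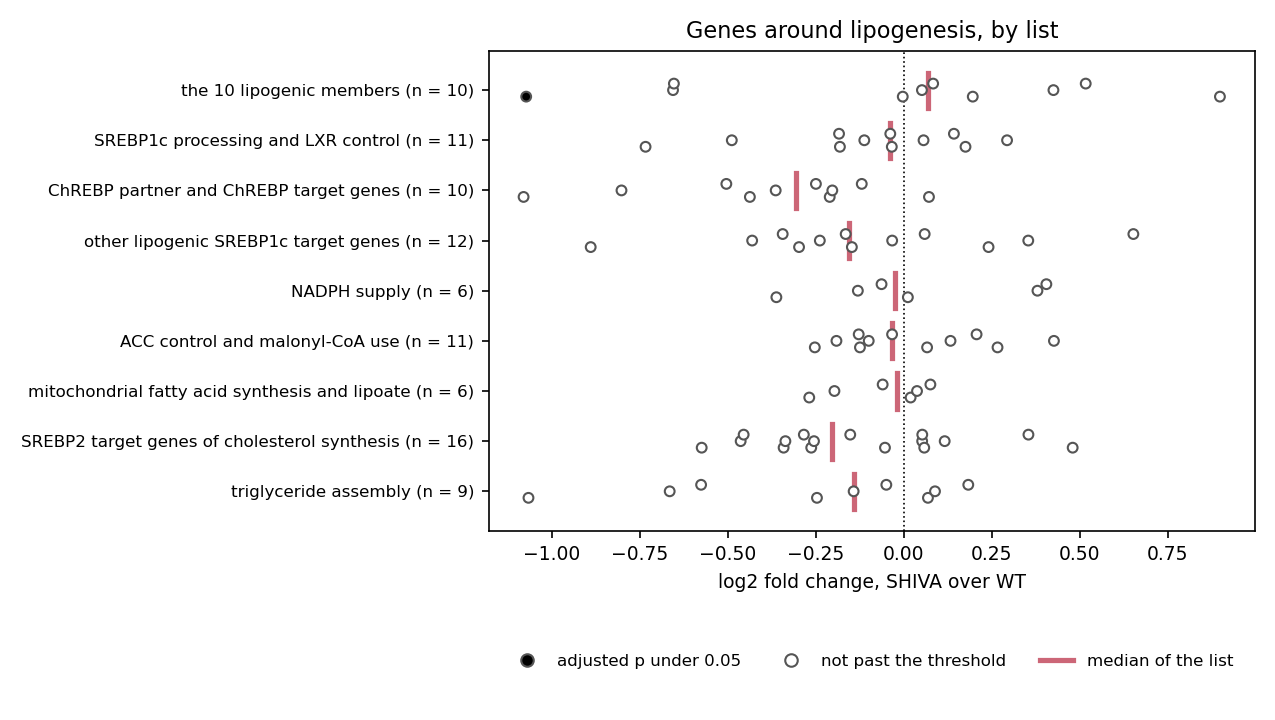
Fitted log2 fold change of SHIVA over WT livers for each tested gene of the 10 members and of 8 related lists, with the median of each list as a red bar and the number of genes tested in brackets. Points are spread vertically only for legibility. Me1 is the only filled point (adjusted p under 0.05), and the list with the lowest median is that of ChREBP's partner and targets, at -0.31.

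The state of the livers was described by genes that rise in fasting and by clock genes. Of 12 tested fasting-induced genes, 0 passed under limma, 5 had an unadjusted p under 0.05 and 4 did not overlap, all lower in SHIVA livers, beside 13.3% of all genes with an unadjusted p under 0.05, 12.2% not overlapping and 6.02% not overlapping and lower. Among the alternatives this list held calls only with a replicate block (1 gene) and without WT replicate 3 (2 genes), all lower in SHIVA livers. The median of the fasting-induced genes was -0.25, and it was -0.46 without WT replicate 1, -0.15 without WT replicate 3, -0.16 without SHIVA replicate 2 and -0.51 without SHIVA replicate 4. They ran from Cyp4a14, a fatty acid hydroxylase and PPARα target (-2.27, adjusted p = 0.164, limma), to Ppargc1a (0.32, adjusted p = 0.855, limma). Of 9 tested clock genes, 1 passed, Nr1d1, which encodes the repressor REV-ERBα, at 10.64, 10.23 and 10.57 in WT livers and 9.58, 8.98, 9.10 and 9.24 in SHIVA livers (-1.26, adjusted p = 0.0420, limma), beside 0.375% of all genes. With single mice left out the clock list held a call in 1 of 7 fits, the one without WT replicate 3, and it held 0 calls with no filter on dim probes, with array weights or with the methods' t-test. The median of the clock genes was -0.02, and it was 0.20 without SHIVA replicate 4, 0.03 without SHIVA replicate 3 and 0.06 with a filter on all 7 arrays. Whether the fasting state or the clock bears on the values of Me1 or Acly was not tested.

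Several lipogenic enzymes are also high in fat tissue, so markers of other cells were set beside them. The livers had the signals of hepatocytes, with all 10 hepatocyte markers well above background on every array and a median log2 fold change of 0.03 between the genotypes. Of 7 white adipose markers, 5 were not tested, because Plin1, Retn, Cfd and Lep were not well above background on any array and Adipoq was so on 1, SHIVA replicate 1. Without that liver the change was -1.08 for Me1 (adjusted p = 0.136, limma) and 0.97 for Acly (adjusted p = 0.350, limma). The summed level of the 2 tested markers, Cidec and Fabp4, in normalized intensity, was 286 to 610 in WT and 504 to 739 in SHIVA livers. The 2 tested markers differed in sign. Cidec, a lipid droplet protein that fatty hepatocytes also make, was well above background on 2 WT arrays and 1 SHIVA array (-2.79, adjusted p = 0.277, limma). Fabp4, a fatty acid binding protein, was so on all 7 arrays (0.81, unadjusted p = 0.00732, adjusted p = 0.210, limma). The groups overlapped for both.

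Of the other lists, 0 genes passed. The 6 Kupffer cell and macrophage markers all lay above 0, with a median of 0.57, and were led by Marco (1.54, adjusted p = 0.323, limma). Their summed level was 18100 to 38791 in WT and 25533 to 56578 in SHIVA livers, and WT replicate 3 lay among the SHIVA livers for Marco (11.94 beside 11.15 to 12.80). Sinusoidal endothelial markers lay 3 below and 3 above 0, with a median of 0.01, from Kdr (-0.29) to Lyve1 (0.79). Stellate cell markers lay 3 below and 2 above 0, with a median of -0.01, from Des (-0.24, groups not overlapping) to Col3a1 (0.99). Of 5 biliary markers only 3 were bright enough to be tested. These lay 2 below and 1 above 0, with a median of -0.73, from Krt7 (-0.81) to Sox9 (0.60). Krt7 was well above background on 2 WT and 3 SHIVA arrays. The 3 tested red blood cell markers lay above 0, with a median of 0.43, led by Alas2 (0.63), and the only tested pancreas marker was Ctrb1 (0.22). What part these cells have in the values of the lipogenic genes was not tested.

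The estimates for Me1, Acly and Fasn were set out under other processing and with other choices of livers, which are not like for like. Other filters on dim probes and the methods' t-test keep the fold change by construction, and the gene names of the files kept it too. Over 11 other ways of processing or testing, Me1 lay between -1.14 and -1.05 and passed in 8. The exceptions included no filter on dim probes (adjusted p = 0.117, limma) and the methods' t-test (adjusted p = 0.192). Acly lay between 0.75 and 0.90 and Fasn between -0.66 and -0.51, and neither passed in any of these. The ends of -1.14 for Me1 and -0.51 for Fasn came from the replicate block. It gave the same fold changes as leaving out SHIVA replicate 4, and so was itself a choice of livers. With single mice left out, Acly lay between 0.66 and 1.22 and Fasn between -0.85 and -0.39.

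**Figure D5:**
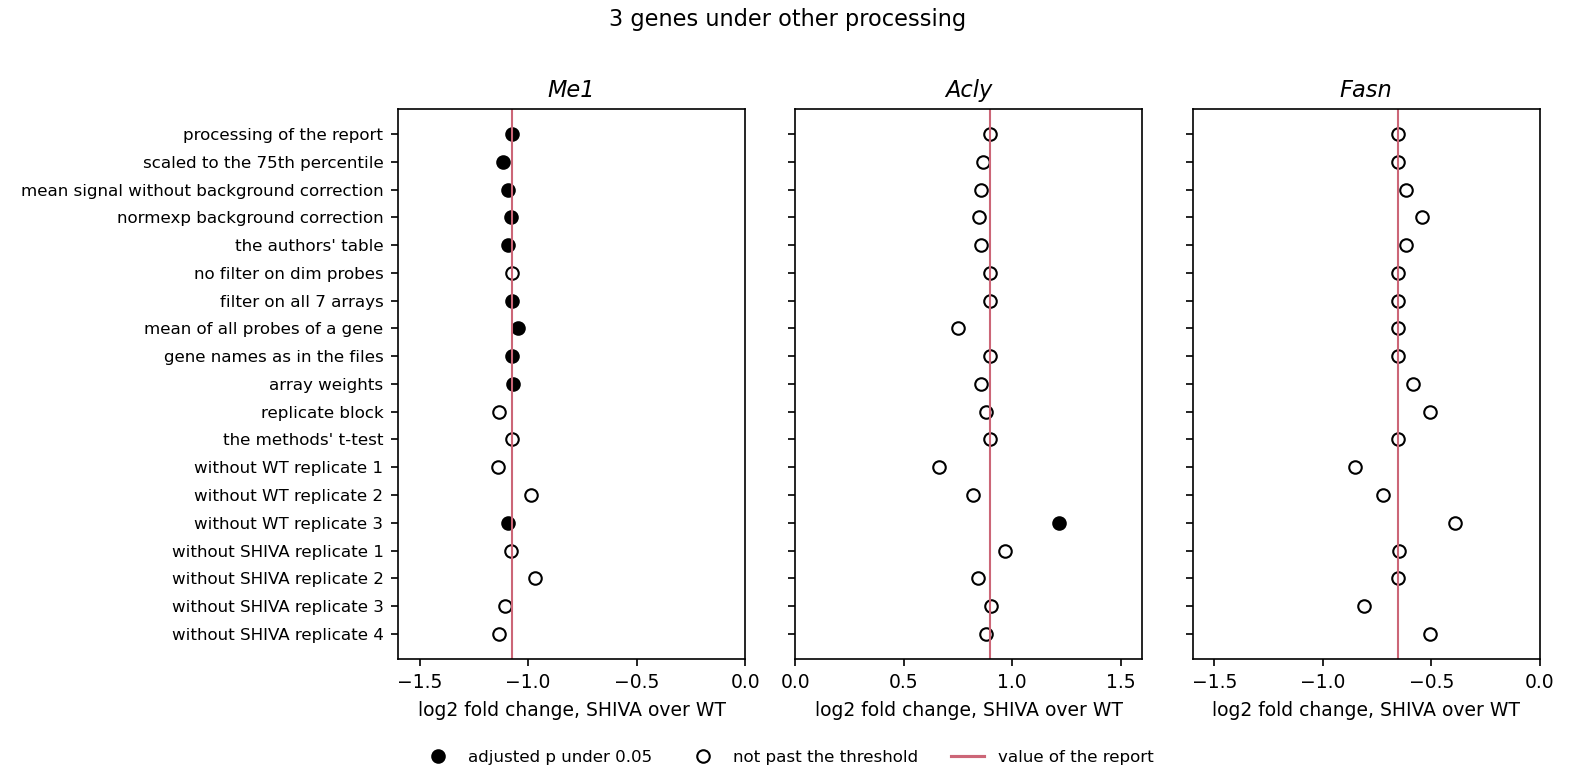
Log2 fold change of SHIVA over WT livers for Me1, Acly and Fasn under the processing of the report (top row, red line) and 18 alternatives, including the 7 that leave out 1 mouse each. Filled points passed an adjusted p of 0.05. Me1 lies between -1.14 and -0.97 and passes in 9 of the 18, Acly passes only without WT replicate 3 and Fasn in none. Some of the 18 keep the fold change by construction, so they are not 18 separate checks.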

How the data were processed

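RNA of 7 fasted livers was hybridized to single-colour Agilent arrays, 1 array per mouse. The authors deposited the scanner output, with spot intensities from Agilent Feature Extraction 10.5.1.1 (detrended within each array, not normalized between arrays), and a table of log2 values that, per the study's methods, the authors had quantile normalized. That table was used as an alternative only. Probe positions in the scanner output are those of mm9.

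In R 4.3.3, spots flagged as uneven or deviant (120 to 163 per array) were left out, and quantile normalization was applied to the processed intensities of all 7 arrays, which were put on the log2 scale and averaged per probe. Gene names were brought up to date by RefSeq accession (26413 probes), and each gene was represented by its brightest probe on average. Genes well above background on at least 3 arrays were tested with limma 3.58.1. Replicates are separate mice. Quantile normalization puts all arrays on the same distribution, so only changes relative to other genes are seen. The steps were tested on simulated data.

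The members and lists were chosen with earlier results of these data known. Named are all members, called genes of the pathway and comparator lists, the lowest and highest gene of each of these lists, the marker with the largest change of each marker list, and Sox17, except 1 gene that is not reported here. Pklr, Khk, Mlxip, Nr1d1, Cyp4a14, Ppargc1a, Fabp4, Kdr, Des, Sox9 and the untested Me3, H6pdx and adipose markers were named after their values were seen. Alternatives were other background corrections and scalings (among them the 75th percentile and normexp with an offset of 50), the filter on dim probes, other gene summaries and names, array weights, a replicate block, the t-test named in the study's general statistics (here "the methods' t-test"), single probes and leaving out each mouse. For motifs, the forward strand alone was also searched.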

Additional observations from a re-analysis of the deposited data

Results flagged for a closer look

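The Acaca signal of 1 SHIVA liver stood apart from the others of its group. SHIVA replicate 3 read 10.257 on the log2 scale, while the other 3 SHIVA livers read 10.102 to 10.109. The gap to the nearest of them, divided by the range of the group, was 0.955, above Dixon's critical value for 4 samples. All 10 members were searched, and chance flags about 1 in 20 groups. The whole range of the SHIVA livers in this gene was 0.16 log2 units, smaller than the WT range of 0.52. SHIVA replicate 3 was also the highest SHIVA liver in 6 of the 10 members.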

How the results depend on the processing

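Me1, Acly, Acss2, Acacb, Fasn and Srebf1 had the same sign under all 18 alternatives (with single mice left out, Srebf1 0.04 to 0.96 and Acss2 0.27 to 0.69), as did the medians of the lists for ChREBP, triglyceride assembly and fasting. These are not 18 separate checks. Some keep the fold change of a gene by construction, and the replicate block repeats those of the fit without SHIVA replicate 4. The authors' table had a rank correlation of 1 with the mean signal on every array. The median of the 10 members was -0.0751 to 0.175 with single mice left out. Counts of calls were less steady. Against 75 genes called over all genes, 142 were called with the mean signal or the authors' table, 163 with array weights, 13 with no filter on dim probes, 32 with a replicate block and 0 with the methods' t-test (2299 at an unadjusted p under 0.05), and with single mice left out 3 (without WT replicate 1) to 416 (without WT replicate 3). Against 1 member called, 0 were called with no filter on dim probes, with the block, with the t-test and among single probes, and 0 to 2 with single mice left out, the 2 being Me1 and Acly without WT replicate 3. For Me1 the adjusted p was 0.117 with no filter, 0.119 with the block and 0.192 with the t-test. Filtering changes how many genes the adjustment runs over. With the block, SHIVA replicate 4 has no WT liver of its number, and the fold changes are those of the fit without it. The t-test keeps the fold changes but uses the variance of each gene alone. For the other settings the cause was not tested. With the block the median of the clock genes was 0.20 with 0 calls, and that of the fasting genes -0.51 with 1 call, lower in SHIVA livers. Whether the replicate numbers pair the mice is not known. The correlations of deviations between livers of the same number were -0.05, 0.01 and 0.24 for replicates 1 to 3. All other pairs of a WT and a SHIVA liver lay between -0.20 and 0.20, and pairing was not tested. The block rests on the 3 numbers shared by both groups. Near 0 the sign was not settled. Acaca was 0.09 with the mean signal (0.0939), normexp (0.0924) and the authors' table (0.0946) and 0.0089 with the block, and -0.16 to 0.0986 with single mice left out. Pnpla3 was -0.0496 as the mean of its probes and -0.14 to 0.39 with single mice left out, Mlxipl -0.0818 to 0.252 and Scd1 -0.14 to 0.35. Searching the forward strand alone left 3 of 13 member promoters with an NF-Y box (19.1% of all promoters) and 5 with a GC box (20.5%).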
